A study of Mus musculus with 36 samples.

Results

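The CpG clusters described here lie at 10 genes of glycolysis and nutrient uptake, Slc2a1, Slc7a5, Hk1, Hk2, Pfkl, Pfkp, Aldoa, Eno1, Pkm and Ldha. A CpG cluster is a run of measured CpG positions at most 100 bp apart, and a cluster was taken when it overlapped the gene or the 2 kb on either side of it in the GENCODE M21 annotation of GRCm38. This gave 14 of the 18009 clusters of the series, 12 of them within 1000 bp of an annotated transcription start of the gene (called promoter clusters), 1 in a gene body and 1 in the flank. All 14 had values in every sample and were among the 16734 clusters tested. DNA methylation was measured by reduced representation bisulfite sequencing (RRBS), which reads CpG-rich MspI fragments, in the mouse B3 cell line, a model of the pre-B stage of B-cell development. In the Ikaros series the cells carried a retroviral vector for HA-tagged Ikaros fused to the ERt2 hormone-binding domain with IRES-GFP, so that the transcription factor Ikaros enters the nucleus when 4-hydroxytamoxifen (4-OHT) is added. The Control series carried the same kind of vector with ERt2 and IRES-GFP and no Ikaros. Both were transduced cell populations sorted for GFP. Each series had 3 replicates at 0, 2, 6, 12, 18 and 24 h, which made 18 samples per series and 36 in all. The labels give 0.5 µM 4-OHT at every time point, while the methods of the study describe 0 h cells as untreated and collected separately. Replicates were repeats of the experiment with the same transduced populations, so the p-values measure the spread between these repeats and not between independently made cell lines.

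Glycolysis turns glucose into pyruvate and lactate. Slc2a1 encodes the glucose transporter GLUT1, the hexokinases phosphorylate the glucose that enters, phosphofructokinase commits it to the pathway, and aldolase, enolase, pyruvate kinase and lactate dehydrogenase act at later steps. Slc7a5 encodes LAT1, which carries large neutral amino acids into the cell. Growing B-cell precursors depend on this uptake, and Ikaros is known as a restraint on pre-B cell growth and metabolism. Methylation of CpG-rich promoters is typically low at genes in use, while gene bodies and intergenic DNA are typically methylated. The question here was whether methylation at these loci differed between the series or moved after induction. RNA was not analysed here.

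The sequences below show the kinds of CpG-rich DNA behind the values, with each measured CG in capitals. They are, in this order, the stretch before an annotated internal transcription start of Ldha at chr7:46845578-46845838 (plus strand), the intronic cluster of Pfkp at chr13:6647192-6647432 (minus strand), the methylated flank cluster of Pkm at chr9:59680212-59680511 (plus strand), and the coding start and first intron in the third Aldoa cluster at chr7:126808831-126808875 (minus strand). All are from GRCm38, 5′ to 3′.
Ldha: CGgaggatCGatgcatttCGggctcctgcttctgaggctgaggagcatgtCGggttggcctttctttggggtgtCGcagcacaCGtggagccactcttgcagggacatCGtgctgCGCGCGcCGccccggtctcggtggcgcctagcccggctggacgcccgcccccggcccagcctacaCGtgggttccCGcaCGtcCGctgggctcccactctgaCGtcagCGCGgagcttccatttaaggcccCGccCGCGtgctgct
Pfkp: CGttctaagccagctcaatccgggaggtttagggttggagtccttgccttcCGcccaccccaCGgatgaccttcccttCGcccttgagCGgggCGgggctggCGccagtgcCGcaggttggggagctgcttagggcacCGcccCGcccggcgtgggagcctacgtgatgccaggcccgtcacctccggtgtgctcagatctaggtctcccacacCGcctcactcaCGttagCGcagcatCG
Pkm cluster 2: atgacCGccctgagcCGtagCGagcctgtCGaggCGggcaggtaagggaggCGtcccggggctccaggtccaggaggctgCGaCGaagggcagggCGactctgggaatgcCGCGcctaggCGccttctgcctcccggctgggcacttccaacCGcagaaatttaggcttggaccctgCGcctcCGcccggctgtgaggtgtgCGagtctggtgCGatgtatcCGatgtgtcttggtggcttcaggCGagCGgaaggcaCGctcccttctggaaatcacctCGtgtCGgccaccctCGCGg
Aldoa cluster 3: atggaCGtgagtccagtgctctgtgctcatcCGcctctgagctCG
The measured positions of the Ldha stretch had a level of 0.444% ± 0.446 (SD, n = 18) among Control samples and 0.256% ± 0.346 (SD, n = 18) in the Ikaros series, and those of the Pfkp stretch 0.382% ± 0.415 and 0.184% ± 0.296. The Pkm stretch, with a GC content close to these, stood at 97.8% ± 0.918 and 98.0% ± 0.838. The Aldoa stretch, the only one of the 4 at an intermediate level, stood at 16.3% ± 7.58 and 31.6% ± 15.8. The GC content was 68.6% for Ldha, 66.8% for Pfkp, 66.7% for Pkm cluster 2 and 60.0% for Aldoa cluster 3. All 817 measured positions of the 14 clusters fell on a CG of the reference.

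The deposited values are smoothed methylation levels without read numbers, and the depth is unknown. Positions left empty ranged from 0.139% to 3.18% in the Ikaros libraries and from 0.110% to 11.6% in the Control libraries. The share of levels at exactly 0 or 1 averaged 36.2% over the 18 Ikaros libraries (SD 7.63) and 27.9% over the 18 Control libraries (SD 4.89), so this measure moved with the groups compared. It was highest in Ikaros 24 h replicate 2, at 59.1%, which also had the most empty positions of its series. Promoter clusters of 3 of 10 B-lineage marker genes (Pax5, Ebf1 and Vpreb1) had mean levels of 0.205% to 0.982%, those of 3 of 9 T-lineage genes (Lck, Tcf7 and Bcl11b) 46.9% to 98.2%, and those of 1 of 7 myeloid genes (Cebpa) 97.8% to 98.2%. The other markers had no promoter cluster.

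The promoter clusters of these genes, apart from Aldoa cluster 3, had little methylation in both series. Pfkp had no promoter cluster. The mean level over all samples was under 1% in 10 of the 14 clusters, under 10% in 12, between 10% and 90% in Aldoa cluster 3 alone, and over 90% in Pkm cluster 2 alone. The median over the 12 promoter clusters was 0.366%, and 11 of them were under 10%. Over all 13134 promoter clusters of the series the median was 1.16% and 58.4% were under 10%. In that set the start could be of any protein-coding gene, whereas members were classed only by starts of their own gene. Pkm cluster 2, near a start of Gramd2, was therefore counted as flank, so the 2 sets are not strictly alike. The plot of all clusters by sample shows the 2 clusters that stood apart from the rest.

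**Figure D1:**
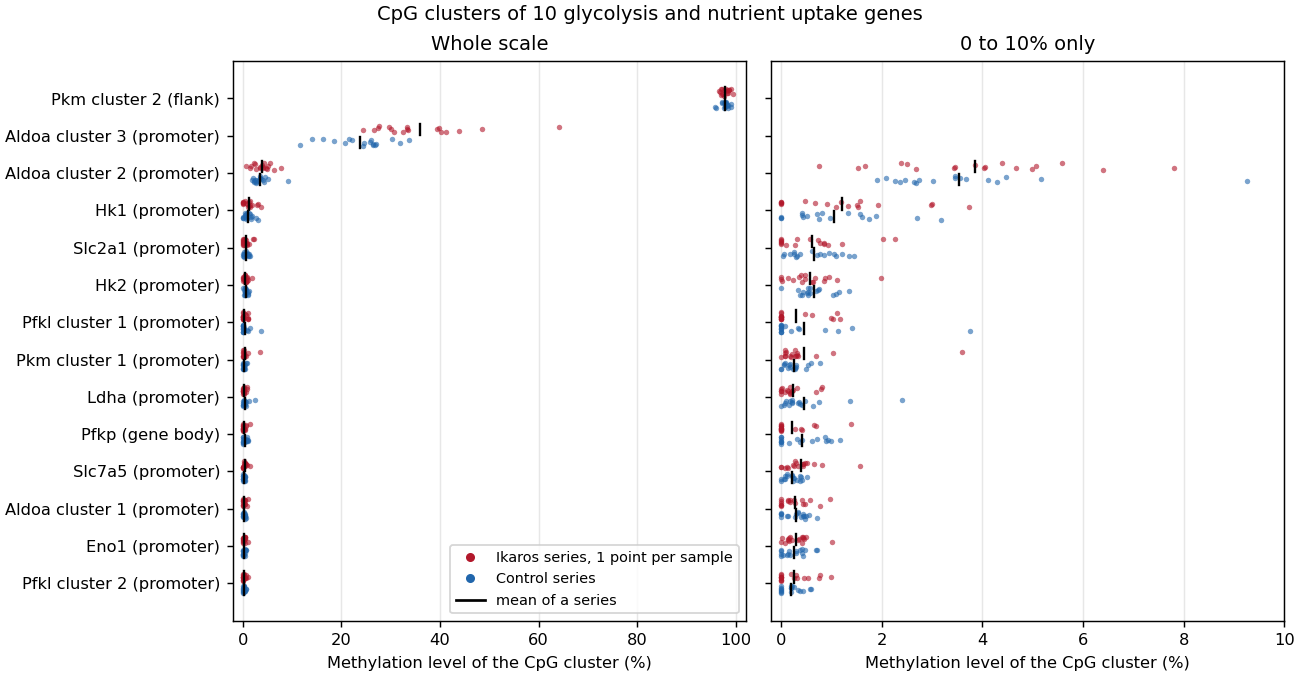
Methylation level (%) of the 14 CpG clusters, 1 point per sample (18 Ikaros, 18 Control), with black marks for the series means; the left panel shows the whole scale and the right panel 0 to 10%. Pkm cluster 2 lies near 97.8% in both series, Aldoa cluster 3 lies at 35.9% in the Ikaros series and 23.8% in the Control series, and the other 12 clusters have means under 4%.

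Between the series, 1 of the 14 clusters passed the test (limma on M-values, adjusted p under 0.05 after Benjamini-Hochberg adjustment over all clusters). Of all clusters tested, 4.84% passed in this comparison, 621 of them higher and 189 lower in the Ikaros series. The 1 member was Aldoa cluster 3, which was higher in the Ikaros series. The M-value is log2 of the methylated over the unmethylated share, computed by the authors from levels held within 0.01 and 0.99, so all levels of 1% and below share 1 M-value. In 11 of the 12 low clusters 70.2% to 97.2% of the values were at or under that limit, and in Aldoa cluster 2 16.3% were, and the levels themselves were therefore tested too. That gave the same single call.

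The transporters carried little methylation. The Slc2a1 cluster (chr4:119108939-119109353, 74 positions) lies over the first exon, 25 bp from an annotated start. It ranged from 0.0346% through a median of 0.665% to 1.45% in the Control series and from 0% through 0.448% to 2.27% in the Ikaros series. The series overlapped throughout, and the difference was -0.0500 percentage points with a 95% interval of -0.459 to 0.359 (limma on levels, adjusted p = 0.943). The Slc7a5 cluster (chr8:121906714-121907616) was the longest list of positions among the members, 126. It also overlaps the annotated gene Gm20388 and lies near the start of BC048644. It ranged from 0% through 0.230% to 0.514% in the Control series and from 0% through 0.317% to 1.57% in the Ikaros series. Its difference of 0.170 percentage points had an interval of -0.00627 to 0.347 (limma on levels, adjusted p = 0.359), and the highest value belonged to Ikaros 24 h replicate 1.

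Of the hexokinases, Hk2, the inducible form, had its cluster at chr6:82773372-82774130 over the first exon. Its level ranged from 0% through 0.556% to 1.34% in the Control series and from 0% through 0.481% to 1.99% in the Ikaros series, a difference of -0.0791 percentage points with an interval of -0.365 to 0.207. These values rest on the 46 of its 88 positions with a value in every sample, and over all positions with a value the Hk2 mean was 1.13% in place of 0.606%. The level rose towards one end of the cluster, where the position at 82774094 stood at 3.97% ± 1.65 in the Ikaros series and 3.81% ± 0.923 in the Control series (SD, 35 of 36 samples with a value). The Hk1 cluster (chr10:62339457-62339997) lies in an intron, 545 bp from an internal start of the gene, and near the start of the antisense gene Hk1os. It ranged from 0% through 0.786% to 3.18% in the Control series and from 0% through 1.14% to 3.74% in the Ikaros series. Its difference was 0.157 percentage points with an interval of -0.518 to 0.832.

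For phosphofructokinase, the liver-type gene Pfkl had 2 clusters and the platelet-type gene Pfkp 1. Pfkl cluster 2, across the start (chr10:78009807-78010125), stood at 0.253% ± 0.322 (SD, n = 18) in the Ikaros series and 0.201% ± 0.201 (SD, n = 18) among Control samples. Pfkl cluster 1 (chr10:78008905-78009420), 307 bp from the nearest annotated start, stood at 0.301% ± 0.465 and 0.452% ± 0.931. That value rests on 10 of its 29 positions, those with a value in every sample. Its outermost position, 78008905, which is not among the 10 and had a value in 35 samples, had a mean of 10.3% ± 6.73 in the Ikaros series and 19.3% ± 10.2 in the Control series, a difference that was not tested on its own. Over all positions with a value the cluster mean was 1.33%. The Pfkp cluster lies in an intron 1293 bp from the start. It was unmethylated as well, at 0.212% ± 0.378 in the Ikaros series and 0.413% ± 0.420 in the Control series, although 77.3% of the 1954 gene-body clusters of the series were over 90%. The Pfkp difference was -0.201 percentage points with an interval of -0.489 to 0.0867 (limma on levels, adjusted p = 0.575).

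Aldoa, the aldolase of muscle and of most growing cells, had 3 clusters with unequal levels. Aldoa cluster 1 (chr7:126798856-126799195) overlapped a start and was at 0.267% ± 0.290 (SD, n = 18) in the Ikaros series and 0.304% ± 0.216 (SD, n = 18) among Control samples. Aldoa cluster 2 (chr7:126799490-126800222), just upstream, was higher, at 3.85% ± 1.79 and 3.53% ± 1.69, from 7 of its 42 positions. Over all positions with a value its mean was 2.11% in place of 3.69%. Along it the level was highest at position 126799995, with 10.7% ± 9.87 in the Ikaros series and 4.80% ± 4.66 in the Control series (SD, 35 of 36 samples with a value), which was not tested on its own. The cluster's difference was 0.314 percentage points with an interval of -0.863 to 1.49 (limma on levels, adjusted p = 0.863). Aldoa cluster 3 (chr7:126808831-126809043, 20 positions) lies farther upstream, over the first exon and the beginning of the first intron of a distinct upstream start, which the annotation lists as 1 of 2 loci named Aldoa. It is 65 bp from that start. All 3 clusters also overlap the span of Fam57b, so their values cannot be assigned to Aldoa alone.

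In Aldoa cluster 3 the Control samples ranged from 11.6% through a median of 25.2% to 33.7%, and the Ikaros samples from 24.4% through 33.3% to 64.1%. The ranges overlapped: 7 of 18 Ikaros samples lay above every Control sample, and 7 of 18 Control samples below every Ikaros sample. At 0 h the Control replicates had 11.6%, 16.3% and 26.4%, and the Ikaros replicates 24.4%, 33.3% and 39.7%. The series therefore differed in mean before any induction described by the study, by 14.4 percentage points, although the replicates overlapped. At 24 h the Control replicates had 18.6%, 30.2% and 26.0%, and the Ikaros replicates 27.7%, 64.1% and 43.9%. The Ikaros mean was the higher one at all 6 time points, by 5.63 percentage points at 12 h and by 20.3 at 24 h at the extremes. Only at 6 h did the replicates not overlap. Such a gap at a single time point also occurred in members that were not called. These were Hk1 and Hk2 at 18 h, Pkm cluster 1 at 12 h, Aldoa cluster 1 at 0 h and Slc7a5 at 6 h.

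Over all samples the Aldoa cluster 3 level was 35.9% ± 9.63 (SD, n = 18) in the Ikaros series and 23.8% ± 5.89 (SD, n = 18) among Control samples. The difference was 12.1 percentage points (95% interval 6.78 to 17.5), or 1.00 in M-value (SE 0.21, limma adjusted p = 0.00247). Within replicate numbers 1, 2 and 3, which mark batches, it was 10.4, 17.1 and 8.88 percentage points. Without replicate 2 it was 9.63 percentage points and no longer passed (limma adjusted p = 0.0575). With the share of empty positions and of levels at exactly 0 or 1 as covariates it was 9.65 percentage points and did not pass either (limma adjusted p = 0.219). The highest sample, Ikaros 24 h replicate 2, was the library with the most levels at exactly 0 or 1, and without it the difference was 10.5 percentage points (limma adjusted p = 0.00296). The batch and replicate block fits kept the call.

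Among all clusters with a mean level from 10% to 90%, 350 of 1865 (18.8%) passed the same test, 310 of them higher in the Ikaros series. Of clusters under 10%, 2.94% passed, and of those over 90%, 3.28%. Aldoa cluster 3 is thus of the kind in which calls were most frequent, and its residual SD of 8.30 percentage points was above the median of 4.69 for that class. Its CG density, 5.16 per 100 bp, stood at percentile 6.20 of the clusters tested. Among the members, Hk1, both Pfkl clusters and Aldoa cluster 2 had lower densities still, with mean levels under 10%. A low CG density therefore did not set Aldoa cluster 3 apart from the other members.

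Along Aldoa cluster 3 the level formed a dip in both series. It was highest at the upstream end, at position 126809043, with 47.3% ± 12.9 (SD, n = 18) in the Ikaros series and 36.7% ± 9.35 (SD, n = 18) among Control samples. It was lowest at position 126808889, with 20.9% ± 11.9 and 9.32% ± 4.43. The Ikaros mean was above the Control mean at all 20 positions, by 7.86 to 16.0 percentage points. Neighbouring positions share the smoothing of the authors and are not independent measurements.

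**Figure D2:**
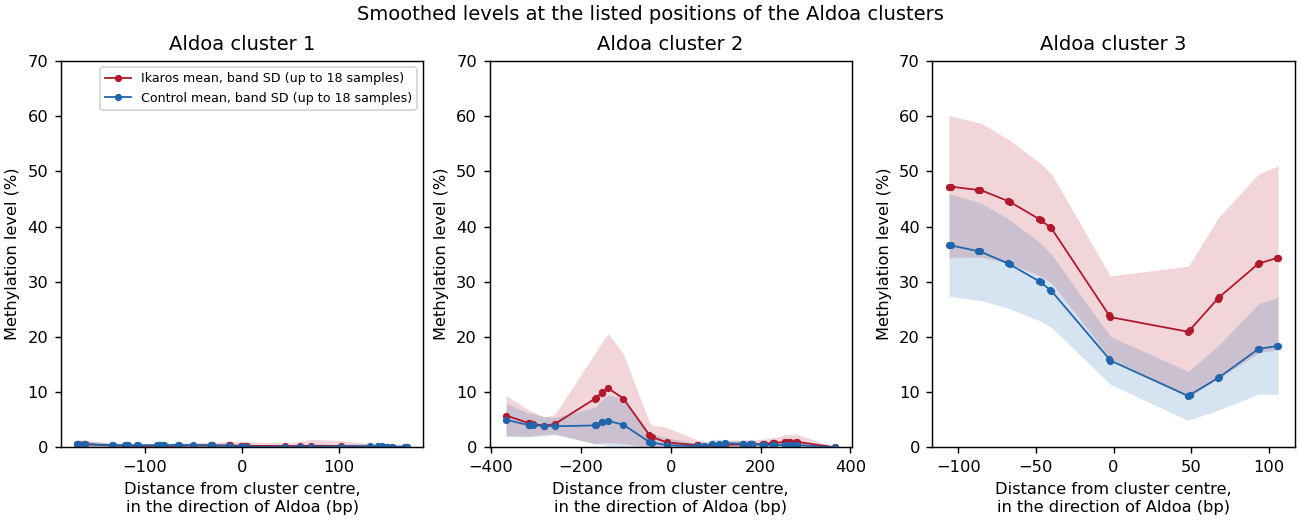
Smoothed methylation level (%) along the 3 Aldoa clusters, against the distance in bp from the centre of each cluster in the direction of the gene; lines are means and bands the SD over the up to 18 samples of each series with a value, cut at 0. Cluster 1 stays under 1% throughout, cluster 2 has a low rise upstream of its centre, and in cluster 3 both series share a dip with the Ikaros mean above the Control mean at all 20 positions.

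The last steps of the pathway had unmethylated starts as well. The cluster of Eno1, the ubiquitous enolase, crosses its start (chr4:150236811-150237517) and stood at 0.301% ± 0.240 (SD, n = 18) in the Ikaros series and 0.263% ± 0.231 (SD, n = 18) among Control samples, with an interval of the difference of -0.145 to 0.221 percentage points. Pkm cluster 1 (chr9:59656119-59657318) covers the pyruvate kinase start over 1200 bp. It ranged from 0% through 0.209% to 0.776% in the Control series and from 0% through 0.243% to 3.60% in the Ikaros series. The 3.60% was Ikaros 12 h replicate 1, and the next highest sample had 1.03%. The difference of Pkm cluster 1 was 0.194 percentage points with an interval of -0.206 to 0.595.

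Pkm cluster 2 (chr9:59680205-59680724) lies beyond the end of Pkm, overlaps its neighbour Gramd2 and is near the start of that gene. It was methylated in every sample, from 95.7% through 97.8% to 99.0% in the Control series and from 96.6% through 97.8% to 99.4% in the Ikaros series. The difference was 0.0514 percentage points with an interval of -0.527 to 0.630. Pkm cluster 1 and Pkm cluster 2 thus stood at opposite ends of the scale in all samples.

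The cluster of Ldha, the lactate dehydrogenase subunit that favours lactate production, is centred 4405 bp inside the annotated gene. It starts with the stretch printed above and runs into the exon at an internal start (chr7:46845578-46846182). It ranged from 0% through 0.279% to 2.40% in the Control series and from 0% through 0.177% to 0.810% in the Ikaros series. The highest sample was Control 18 h replicate 2, and 34 of 36 samples were under 1%. The difference was -0.232 percentage points with an interval of -0.528 to 0.0640 (limma on levels, adjusted p = 0.510). For the 13 clusters other than Aldoa cluster 3, the 95% intervals of the difference reached at most 1.49 percentage points from 0, at Aldoa cluster 2.

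**Figure D3:**
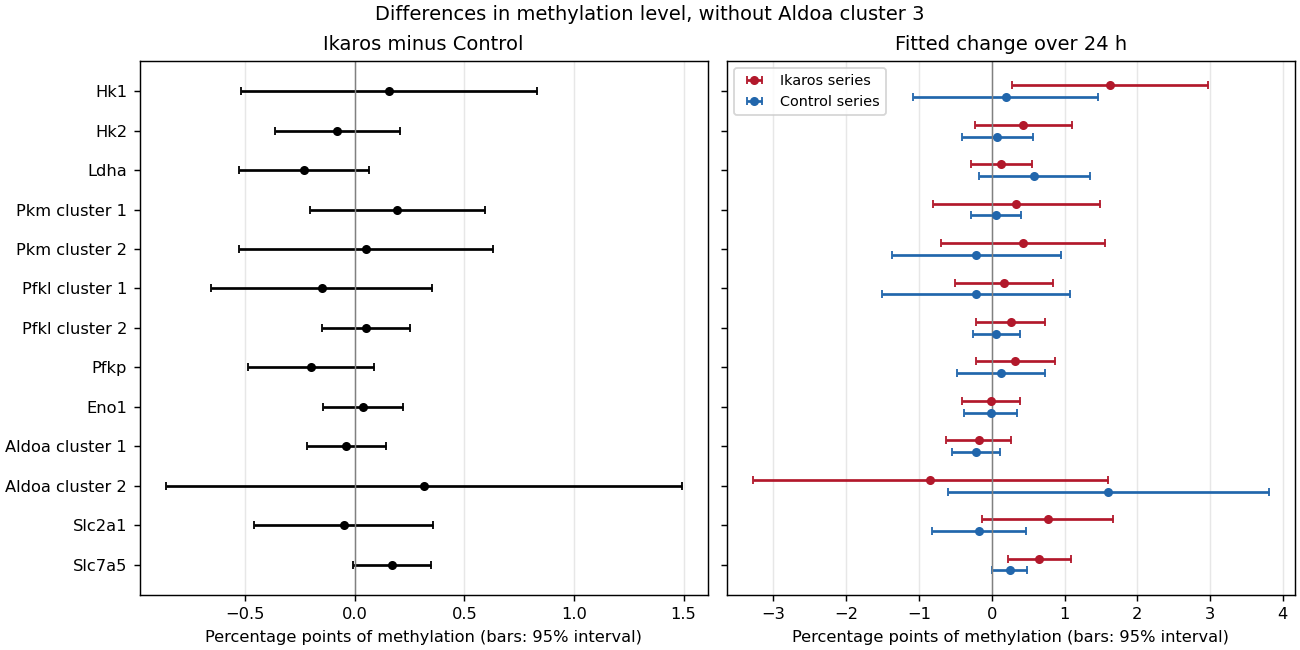
Left, Ikaros minus Control difference in methylation level (percentage points) of 13 clusters, with 95% intervals from limma on the levels (36 samples); right, the fitted change over 24 h in each series (18 samples each) with 95% intervals. Every interval on the left includes 0, and on the right the Hk1 and Slc7a5 intervals of the Ikaros series and the Slc7a5 interval of the Control series lie above 0 before adjustment.

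Over time, none of the 14 clusters passed in any test of the course. For a change of any shape, limma called 0 members in the Ikaros series, where 0% of all clusters passed, and 0 in the Control series, where 0.012% passed. At an unadjusted p under 0.05 the members were 0 and 0, against 873 and 808 of all clusters. For a course that differs between the series, 0 members and 0% of all clusters passed, with 0 members and 857 clusters at an unadjusted p under 0.05. For a steady slope, 0 members passed in the Ikaros series (0% of all clusters), 0 in the Control series (0.00598% of all clusters), and 0 for the difference of the slopes (0% of all clusters). At an unadjusted p under 0.05 these were 1, 0 and 2 members, against 1419, 901 and 1556 of all clusters.

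Slc7a5 had the smallest p among the Ikaros slopes. Its Ikaros replicates were at 0.285%, 0% and 0% at 0 h and at 1.57%, 0.821% and 0.337% at 24 h, and its Control replicates went from 0%, 0.313% and 0% to 0.244%, 0.419% and 0.382%. The fitted gain in the Ikaros series was 0.654 percentage points over 24 h (95% interval 0.217 to 1.09), which did not pass on M-values (limma adjusted p = 0.525) or on levels (limma adjusted p = 0.520). The difference of the Slc7a5 slopes did not pass (limma adjusted p = 0.454). Without Ikaros 24 h replicate 1 the slope on the level scale was 0.0170 percentage points per hour in place of 0.0273. Without replicate 3 it was 0.0387 percentage points per hour and did not pass either (limma on M-values, adjusted p = 0.375).

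Hk1 and Slc2a1 came next among the Ikaros slopes. Hk1 had a fitted gain of 1.62 percentage points over 24 h (95% interval 0.274 to 2.97, limma on levels, adjusted p = 0.589), with Ikaros replicates of 0% to 1.09% at 0 h and 0.469% to 3.74% at 24 h. Slc2a1 had a fitted gain of 0.767 percentage points (95% interval -0.129 to 1.66), with 0% to 0.0902% at 0 h and 0% to 2.27% at 24 h. Without replicate 1 the Slc2a1 slope was 0.000841 percentage points per hour in place of 0.0319. In both the replicates spread as widely at 24 h as the gain itself. With the library measures as covariates the Hk1 slope was 0.0215 percentage points per hour in place of 0.0676. The share of levels at exactly 0 or 1 was 41.3% to 59.1% in the 3 Ikaros libraries of 24 h, 35.0% to 45.0% in those of 0 h and 26.9% to 34.2% in those of 18 h.

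For Ldha, Hk2 and Aldoa cluster 3 the fitted change over 24 h in the Ikaros series was 0.129 percentage points (95% interval -0.290 to 0.549), 0.436 (-0.232 to 1.10) and 8.80 (-3.75 to 21.3). In the Control series it was 0.586 (-0.181 to 1.35), 0.0787 (-0.406 to 0.564) and 4.99 (-2.76 to 12.7). At Aldoa cluster 3 the wide interval leaves a change of many percentage points undetected, whereas at Ldha a change of 2 percentage points in the Ikaros series lay outside the interval. The Aldoa cluster 3 slope in the Ikaros series was 0.367 percentage points per hour, and it turned to -0.0837 without replicate 2 and to -0.0447 with the library measures as covariates. With those covariates the Hk2 slope was 0.0417 percentage points per hour in place of 0.0182. The courses are shown in the plot by time point.

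**Figure D4:**
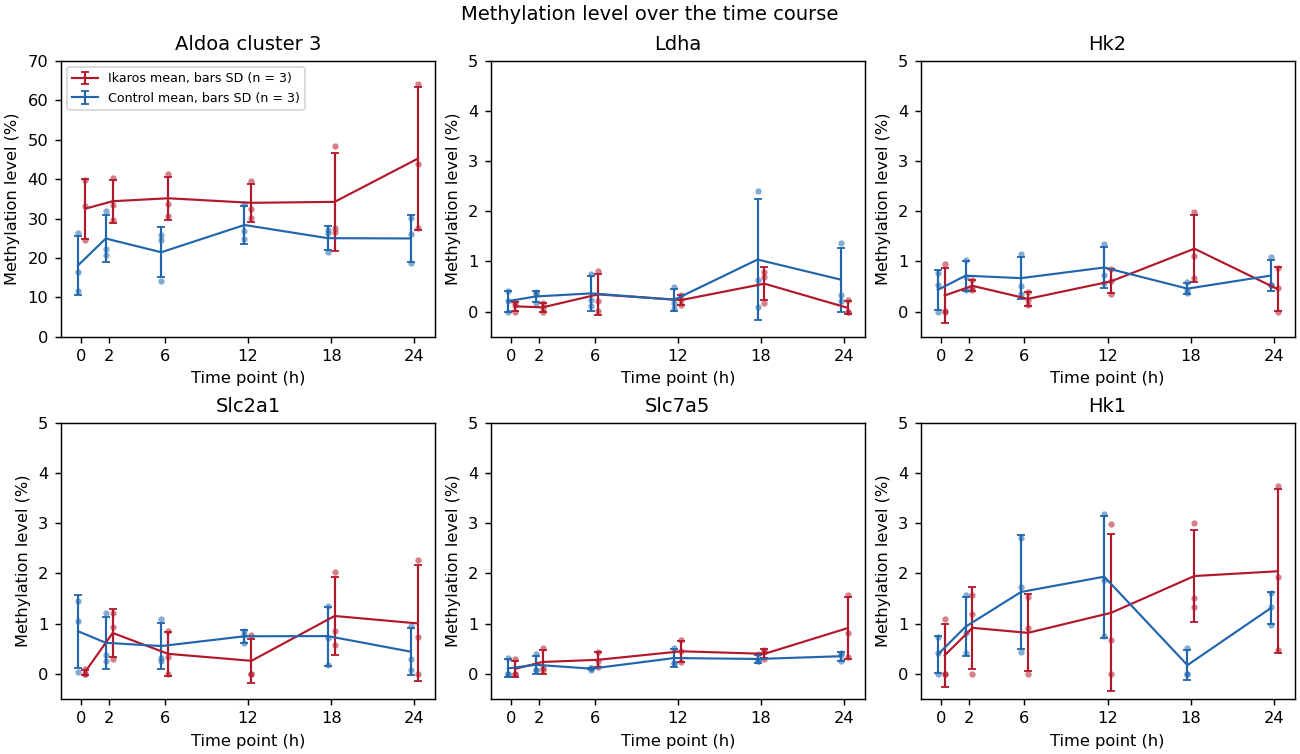
Methylation level (%) against time point (h) for 6 clusters; points are samples, lines the means and bars the SD of 3 replicates, Ikaros in red and Control in blue. The Aldoa panel runs to 70% and the others to 5%. The Ikaros mean of Aldoa cluster 3 is above the Control mean at all 6 time points, starting at 0 h, and the replicates of the other clusters overlap at most time points.

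Most clusters at other genes of the pathway were low in methylation too. A list of 42 further genes of glycolysis, its regulation and nutrient transport had 46 clusters at 32 genes, of which 44 clusters at 31 genes were tested. Of these, 32 were under 10%, 5 between 10% and 90% and 7 over 90%, and the median was 0.580%. In the comparison of the series 1 of the 44 passed (2.27%, against 4.84% of all clusters). In the 6 tests over time 0 passed, with 0 to 4 at an unadjusted p under 0.05, against 4.83% to 9.30% of all clusters. The 1 call was a cluster near the start of Mpc2, a subunit of the mitochondrial pyruvate carrier (chr1:165459684-165460139, also inside Dcaf6). It ranged from 0.284% through 1.13% to 2.02% in the Control series and from 0.544% through 2.08% to 2.94% in the Ikaros series. The ranges overlapped, with means of 1.16% ± 0.421 (SD, n = 18) and 1.89% ± 0.717 (SD, n = 18), and the M-value difference was 0.36 (SE 0.10, limma adjusted p = 0.0310). Under 10 of the 47 alternative settings the Mpc2 call was lost, with adjusted p up to 0.393 without replicate 3.

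Sequence around the starts was read from the RefSeq promoter windows of 300 bases (GRCm38.p6), which held 16 windows for 9 of the 10 genes. The windows of these genes had a median of 22 CGs, from 0 to 30, against a median of 7 over all 32851 windows. The motif TGGGAA, searched on both strands, was in 2 of the 16 windows, both of Eno1, and in 25.6% of all windows. These Eno1 windows, chr4:150236947-150237246 and chr4:150236974-150237273, overlap for most of their length. Windows of Aldoa overlap too, so counts over windows can count a site more than once. The shorter GGGAA, the core letters known for Ikaros binding and contained in TGGGAA, was in 13 of the 16 windows, at 7 of the 9 genes, and in 62.7% of all windows. The MspI site CCGG was in 12 of the 16 windows and in 52.8% of all windows. These counts describe letters in the windows and not binding.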

How the data were processed

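RRBS was measured in 36 samples of mouse B3 cells. After trimming, the reads were mapped by the authors to GRCm38 with Bismark 0.10.1, the coverage of unusually deep sites was limited, and levels were smoothed inside each cluster. The authors deposited the smoothed level as a fraction from 0 to 1, and M-values (log2 scale) after limiting the levels to 0.01 to 0.99. Neither table holds reads, so depth is unknown, counting error cannot be given, and precision rests on the spread between replicates. Smoothing makes neighbouring positions alike.

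All 36 columns were used, with groups, replicate numbers and batches from the labels. Listed positions up to 100 bp apart were joined into clusters (at least 20 positions), and a cluster's value was the mean over positions with a value in all 36 samples. M-values of all 16734 such clusters entered limma 3.58.1 (lmFit, eBayes; R 4.3.3), with Benjamini-Hochberg adjustment and a threshold of 0.05. The series difference was fitted with time point as a factor, the course with F tests, and slopes on hours, which made 7 comparisons. Intervals are from the same fits on levels. The limma fits were also run on simulated data with normally distributed noise and no lower limit on the M-value. A rate of recovery was required there only for the series difference. The simulation does not cover clusters with most values at the limit.

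The 10 genes, the other gene lists and the markers were chosen with earlier results of these data known. Each gene's promoter cluster with the most positions, every cluster past the threshold, the 3 with the smallest unadjusted p in the series and Ikaros slope tests, and clusters from 10% to 90% were given values. The remaining clusters were described to account for every member. Of the other pathway genes, clusters past the threshold were named. Pairing comes from the labels, where a replicate number marks a shared batch, except that replicate 2 was of another batch at 0 h. The deviations of same-numbered samples correlated by a mean of -0.00033 over 198 pairs, 0 of them over 0.1. No 2 libraries were identical. Alternatives were levels, blocks, covariates, other estimation, other positions, the 2 h to 24 h samples, each library and replicate number left out, and a 500 bp promoter window.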

Additional observations from a re-analysis of the deposited data

How the results depend on the processing

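Of the 14 clusters, 1 passed for the difference between the series and 0 in each of the 6 tests over time. With the share of empty positions and of levels at exactly 0 or 1 as covariates the number for the difference was 0 (335 of all clusters passed, against 810). With each replicate number left out it ranged from 0 to 1. It was 0 without replicate 2, a fit on fewer samples in which 543 of all clusters passed. The numbers over time were 0 under all alternatives. With the replicate block the numbers were 1 for the difference and 0 over time, so the block changed no call. Aldoa cluster 3 passed in 45 of 47 alternatives and in 36 of 36 with 1 library left out (limma adjusted p 0.00114 to 0.00497). Leaving out the emptiest library of each series together, chosen after seeing the data, gave 9.93 percentage points (limma adjusted p = 0.00239). The median level of gene-body clusters was 0.726% with the 500 bp promoter window, since Hk1 then joins Pfkp. Of 1288 differences and Ikaros slopes of single clusters under the alternatives, 1278 moved by less than 1 residual SD or kept their call, 8 slopes moved by more, 2 were the lost Aldoa calls, and 0 called values changed sign. The Ikaros slope of Aldoa cluster 3, which was not called, was 0.367 percentage points per hour, -0.0837 without replicate 2 and -0.0447 with the covariates. The missing read numbers limit all values near 0%, where a level of 0% can rest on few reads.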
